A study of Homo sapiens with 2 samples.

Results

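Programmed cell death genes were examined in HCT116, a human colorectal carcinoma cell line, after knockdown of SUN2, an inner nuclear membrane protein that joins the nucleus to the cytoskeleton. The group comprised 36 genes picked by symbol: BCL2 family proteins, caspases, inhibitor of apoptosis (IAP) proteins, mitochondrial death factors and death receptor components. Of these, 34 had at least 1 probe set annotated with their symbol alone, out of 18132 genes so represented on the array. The list was divided into 26 genes whose products promote death, of which 25 were represented, and 10 whose products restrain it, of which 9 were represented. RIPK1, a kinase of the TNF receptor complex, and BIRC3, an IAP protein, were not analysed here.

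The 2 groups were HCT116 cells carrying the hairpin shSUN2-1, called the SUN2 knockdown, and HCT116 cells carrying a scrambled hairpin, called the scrambled control. Each group held 1 microarray, so the design had no replicate culture, no second hairpin and no test. Biotin-labelled cRNA from 100 ng of total RNA was hybridised. The sources used here do not say whether the cells were clones or pools, how long the hairpin was expressed, or whether a death stimulus was given.

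Apoptosis runs along 2 routes that meet at the caspases, proteases that dismantle the cell. In the mitochondrial route, BH3-only proteins bind and neutralise guardians such as BCL2 and MCL1, which frees BAK1 and its relatives to permeabilise the outer mitochondrial membrane. Cytochrome c then leaves the mitochondrion and assembles APAF1 and CASP9 into the apoptosome. In the receptor route, ligands such as TRAIL (TNFSF10) recruit FADD and CASP8 to death receptors, and CFLAR, also called FLIP, blocks CASP8 there. Most of these proteins are controlled by cleavage, binding or turnover, which a transcript level does not show.

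Values are deposited probe set intensities on a linear scale. Differences are on the log2(intensity + 16) scale, with the control array subtracted from the knockdown array, and 0.26 there corresponds to 1.2-fold. A gene was represented by its brightest probe set, and it passed the filter on low values when the mean of that probe set reached the middle value of all probe sets, an intensity of 108. Of the 34 represented members 31 passed, 24 death-promoting and 7 death-restraining, among 12220 genes in all. The SD between probe sets within a gene was 0.09 on this scale over 5786 genes. This is the only error available. It covers probe error within these arrays and no variation between cultures, and the number of arrays limits the precision.

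SUN2 itself was measured at an intensity of 407 on the knockdown array and 498 on the control array, a difference of -0.28 in log2 or 81.8% of control. All 4 SUN2 probe sets that passed the filter described above were lower, by values between -0.39 and -0.07. SUN2 thus differed in the direction of the label, at a small size, and 80 genes had a larger decrease. Background control probe sets were also lower on the knockdown array, as given below, so the direction alone is weak support for the label. The labelled cell type was checked on 11 colorectal epithelial markers, of which 8 passed the filter, 7 of them higher and 1, CDX1, lower (-0.06). EPCAM read 1480 and 1342 and KRT19 3045 and 2619 on the knockdown and control arrays. The largest shift was that of KRT20 at 182 and 91.1 (0.88), whose control value is below the filter. The epithelial markers VIL1 (-0.12), LGALS4 (-0.0044) and CEACAM5 (-0.06) did not pass. The summed intensity of the 11 was 9405 on the knockdown array and 8000.3 on the control array. Of the 16 represented fibroblast, immune and endothelial markers 7 passed, all of them lower in the knockdown. Their summed intensities on the knockdown and control arrays were 674 and 713 for fibroblast, 438 and 464 for immune and 716 and 768 for endothelial markers, and the immune marker PTPRC stood at 49.99 and 53.7. The part of these shifts in the results below was not tested. Both arrays were of the same cell line, so the design included no fibroblast, immune or endothelial cells. The 7 markers of these types that passed differed by -0.13 to -0.07. Background control probe sets above the filter, leaving out the one richest in G and C bases, differed by -0.16 to -0.06. Whether background accounts for the shifts of these 7 markers was not tested.

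Background remained in the values and differed between the arrays. All 9 background control probe sets above the filter, which match no human transcript, were lower on the knockdown array. The 8 of them with 17 to 24 G or C bases differed by -0.16 to -0.06 in log2, and the one with 25 by -0.33. A total of 14 of the 31 members stood below the control with 20 G or C bases on both arrays, that is below 264 on the knockdown array and 282 on the control array, and 4 of them (BAK1, BMF, CASP10 and HRK) below the one with 17. CASP4 and ENDOG were among these 14. On the scrambled control array ENDOG read 140.1, below the 154 of the background control with 17 G or C bases. The GC content of the members' own probes was not known here.

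**Figure D1:**
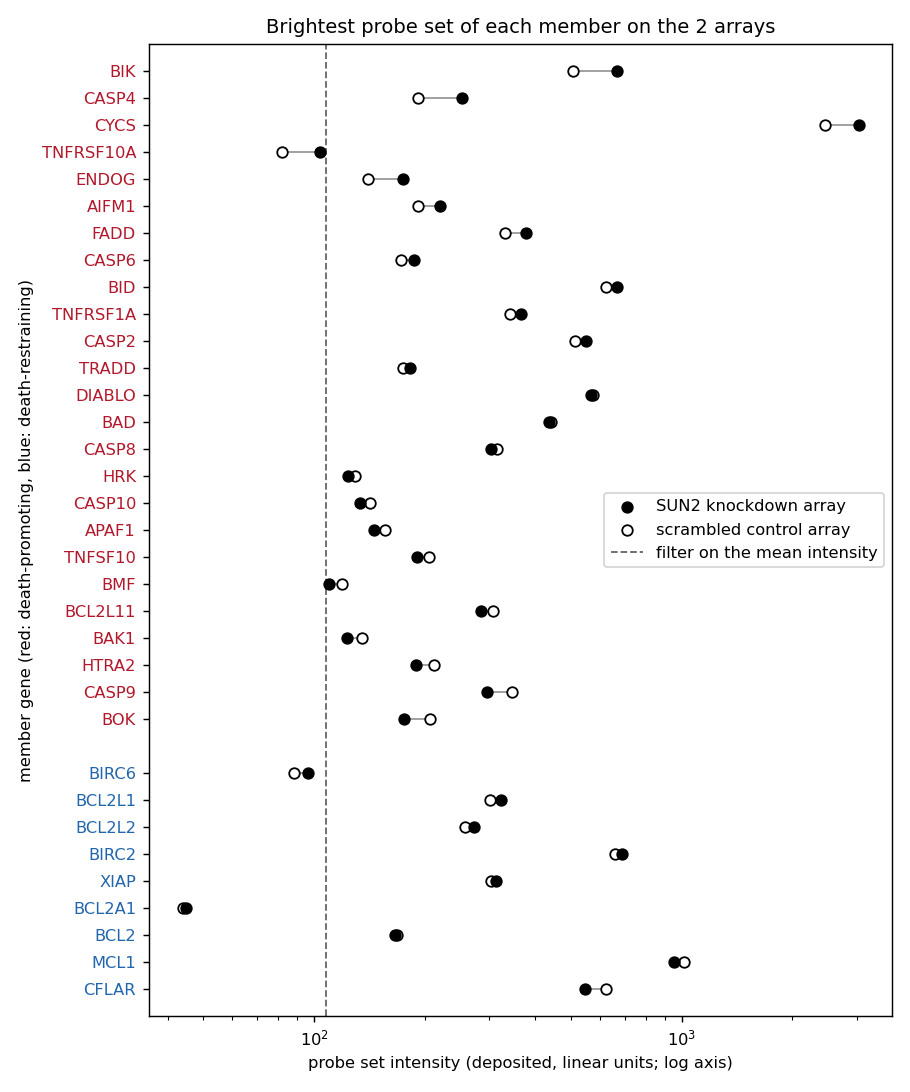
Intensity of the brightest probe set of each of the 34 represented members (log axis, deposited linear units), filled for the SUN2 knockdown array and open for the scrambled control array, with a dashed line at the filter on low values. The paired points nearly coincide for most members, and the widest gaps among those past the filter belong to BIK, CASP4, CYCS and ENDOG, with the knockdown array higher.

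Death gene transcripts differed little between the arrays. Of the 31 members past the filter, 15 were higher and 16 lower in the knockdown, beside 49.8% higher and 50.2% lower among all 12220 genes. The members ranged from -0.21 for BOK to 0.38 for BIK. Their median was -0.01, beside -0.0009 for all genes. At 1.2-fold, 4 members were higher, BIK, CASP4, CYCS and ENDOG, which is 12.9% of the 31, beside a background of 5.95% of all genes, and 0 were lower, beside 0.884%. At 1.5-fold in either direction the count was 0 members, beside 0.36% of genes. Scaling shifted this balance: after quantile normalization 376 genes were 1.2-fold higher and 242 lower, against 727 and 108 as reported. The members then stood at 3 higher (BIK, CASP4 and ENDOG) and 1 lower (CFLAR), beside 3.08% and 1.98% of all genes. In that setting 11 members were above and 20 below 0. The median of all genes was itself -0.03 there, and the share of all genes below 0 was not counted.

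The 2 classes were reported apart. The 4 members past 1.2-fold were 16.7% of the 24 death-promoting ones, and 0 of the 7 death-restraining ones were past it, beside the 5.95% of all genes, so with so few restraining members the 0 is near the background. In the death-promoting class 11 of 24 were higher and 13 lower, with a median of -0.01 and quartiles of -0.10 and 0.13. In the death-restraining class 4 of 7 were higher and 3 lower, with a median of 0.04 and a range from -0.19 for CFLAR to 0.10 for BCL2L1. With 1 array per group there is no test of the difference between the classes.

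**Figure D2:**
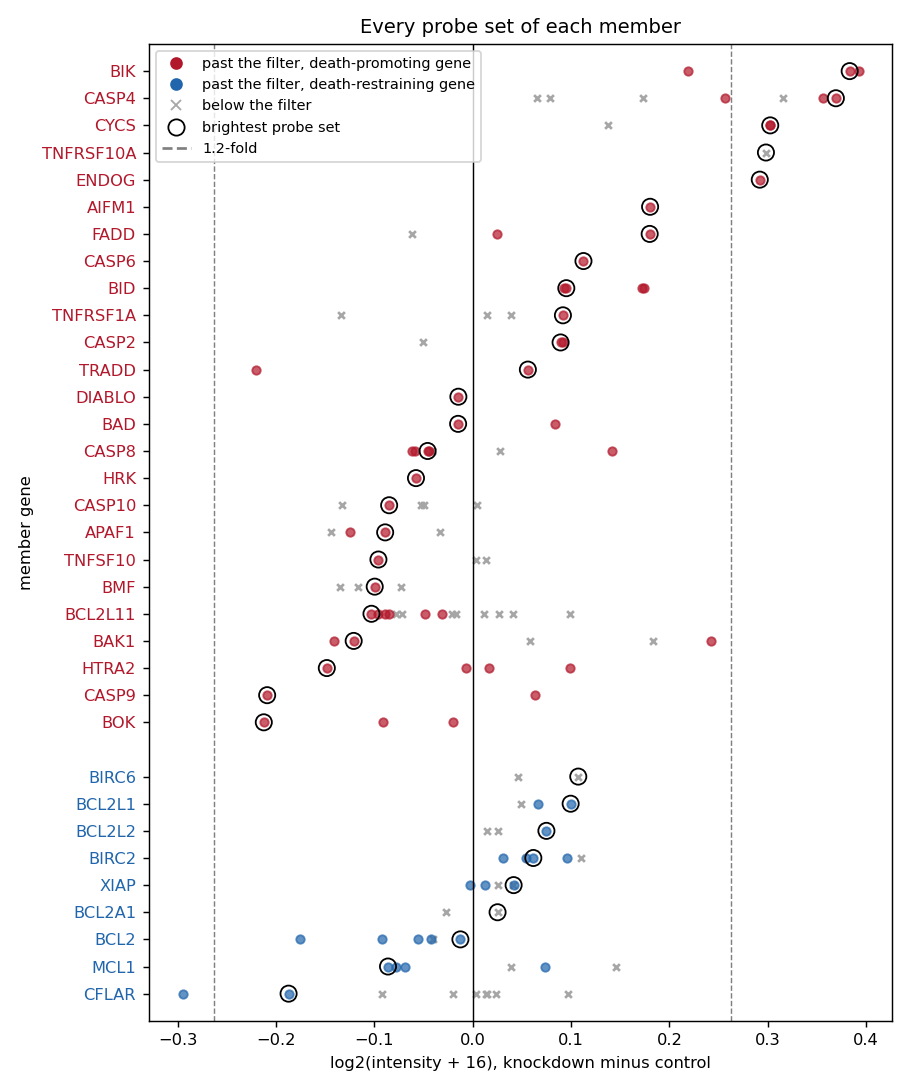
Difference of every probe set of each member (log2(intensity + 16), knockdown minus control), with filled points past the filter, crosses below it, a ring on the brightest probe set and dashed lines at 1.2-fold. BIK and CASP4 have all their probe sets above 0, as do CYCS, BID, BIRC2, BCL2L1 and BCL2L2 among others. BAK1, CASP9, HTRA2, TRADD and MCL1 have probe sets past the filter on both sides of 0.

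Among BH3-only proteins, which sense damage and start the mitochondrial route, BIK stood apart from the others by its value. BIK, a BH3-only protein found largely at the endoplasmic reticulum, read 666 on the knockdown array and 507 on the control array, 1.30-fold higher (0.38). Its second probe set read 286 and 214 (0.39) and the third 209 and 177 (0.22), so all 3 were higher. The brightest is of the _x_at class, whose probes can match other transcripts, and the other 2 are not. BIK was higher than 1.2-fold in all 11 alternative settings, between 0.28 and 0.39, though those that only change the filter cannot alter its value. Of the genes past the filter, 206 had a larger increase.

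The other BH3-only genes lay close to 0. BID, which CASP8 cleaves to link the receptor route to mitochondria, read 668 on the knockdown array and 624 on the control array (0.10), with all 4 probe sets between 0.09 and 0.17. BCL2L11, which encodes BIM, read 284 on the knockdown array and 306 on the control array (-0.10). All 6 that passed the filter were lower, but by no more than 0.10, which is within the range of the background controls. BAD, whose binding to BCL2L1 is regulated by phosphorylation, differed by -0.01 on 1 probe set and 0.08 on the other. BMF (-0.10) and HRK (-0.06) each passed on 1 probe set that was dimmer than the background control with 17 G or C bases.

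The pore-forming members BAK1 and BOK both had lower brightest probe sets. BOK, a BAK1 relative, read 176 on the knockdown array and 207 on the control array (-0.21), the lowest of all members. Its other probe sets differed by -0.09 and -0.02, so their sizes disagreed although the direction did not. BAK1, which oligomerises in the outer mitochondrial membrane, had the widest disagreement of any member. Its 3 probe sets past the filter read 123, 121 and 136 on the knockdown array and 135, 135 and 112 on the control array, for differences of -0.12, -0.14 and 0.24. The mean over all 5 BAK1 probe sets was 0.04, so no direction can be given for it.

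The guardians of the BCL2 family were nearly level in the reported setting. BCL2L1, which encodes BCL-XL, read 324 on the knockdown array and 301 on the control array (0.10), and the second one to pass differed by 0.07. BCL2L2, which encodes BCL-W, differed by 0.07 on the 1 probe set that passed. MCL1, a short-lived guardian, read 956 on the knockdown array and 1015 on the control array (-0.09), and 4 probe sets passed, between -0.09 and 0.07. MCL1 stood lower, at -0.21, after quantile normalization and at -0.19 after a loess correction. BCL2 itself read 166 on the knockdown array and 168 on the control array (-0.01), with 5 probe sets past the filter between -0.18 and -0.01. BCL2A1, an NF-kB-induced guardian of blood cells, did not pass, with 44.9 on the knockdown array and 43.9 on the control array.

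The caspases divided without a shared direction, with 3 of 6 higher and 3 lower. CASP4, an inflammatory caspase that detects bacterial lipopolysaccharide in the cytosol and drives pyroptosis, was the exception in size. It read 253 on the knockdown array and 192 on the control array, 1.29-fold higher (0.37). Its other 2 probe sets past the filter read 140.1 and 106 (0.36) and 126 and 103 (0.26). Both were below the filter value on the control array and passed through the knockdown array, where they were higher, so they add no independent agreement. The 4 below the filter were higher too, by 0.07 to 0.32. CASP1 and CASP5, its neighbours in the inflammatory caspase family, did not pass the filter and differed by 0.02 and -0.03. Of the apoptotic caspases, CASP9, the initiator of the apoptosome, read 296 on the knockdown array and 345 on the control array (-0.21), while its second probe set read 188 and 179 (0.06). CASP8, the initiator of the receptor route, differed by -0.05 on its brightest probe set, and the 5 that passed lay between -0.06 and 0.14. CASP2, linked to the PIDD complex, differed by 0.09, the effector CASP6 by 0.11 and CASP10, a CASP8 relative, by -0.08. APAF1, the scaffold of the apoptosome, read 145 on the knockdown array and 156 on the control array (-0.09), with -0.13 on its second probe set past the filter.

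Of the 5 factors that leave mitochondria during apoptosis, 3 were higher, beside 49.8% of all genes, and CYCS and ENDOG were past 1.2-fold, beside 5.95%; so small a group shows nothing particular to it, and CYCS fell short of 1.2-fold under 3 alternatives given below. CYCS, which encodes cytochrome c, an electron carrier of the respiratory chain and the trigger of the apoptosome, read 3034 on the knockdown array and 2457 on the control array, 1.23-fold higher (0.30). Its second probe set past the filter read 1776 and 1437 (0.30), and the third, below the filter, differed by 0.14. Both bright CYCS probe sets belong to the _s_at and _x_at classes, and CYCS has near-identical processed pseudogenes, so their assignment to 1 gene is uncertain. ENDOG, a mitochondrial nuclease, read 175 on the knockdown array and 140.1 on the control array (0.29) on its only probe set. AIFM1, a flavoprotein that acts in death without caspases, read 219.6 on the knockdown array and 192 on the control array (0.18), also on its only probe set. DIABLO, which displaces IAP proteins from caspases, was level at 569 on the knockdown array and 575 on the control array (-0.01). HTRA2, a mitochondrial protease, differed by -0.15 on its brightest probe set, and its other 3 lay between -0.01 and 0.10.

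The 250 bases before the annotated start of CYCS, CASP4 and ENDOG are shown because these are the members past 1.2-fold with an entry among the RefSeq promoters of GRCh38.p14, the fourth being BIK. Lower case is used except for matches in capitals to CCAAT (the NF-Y box), GGGCGG (the Sp1 box) and GCATGCGC (the core of the NRF1 recognition sequence), on both strands. They lie at chr7:25125261-25125510 on the minus strand, chr11:104968575-104968824 on the minus strand and chr9:128818250-128818499 on the plus strand.
CYCS: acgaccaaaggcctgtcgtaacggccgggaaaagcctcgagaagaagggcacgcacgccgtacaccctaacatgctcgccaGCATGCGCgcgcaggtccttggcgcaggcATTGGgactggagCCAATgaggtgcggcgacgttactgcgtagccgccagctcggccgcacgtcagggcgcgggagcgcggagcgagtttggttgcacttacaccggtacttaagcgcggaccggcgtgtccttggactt
CASP4: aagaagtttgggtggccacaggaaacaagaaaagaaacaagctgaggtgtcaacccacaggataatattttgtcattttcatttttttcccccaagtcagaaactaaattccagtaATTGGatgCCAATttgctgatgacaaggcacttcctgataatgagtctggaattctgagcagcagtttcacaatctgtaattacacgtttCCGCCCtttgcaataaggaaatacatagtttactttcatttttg
ENDOG: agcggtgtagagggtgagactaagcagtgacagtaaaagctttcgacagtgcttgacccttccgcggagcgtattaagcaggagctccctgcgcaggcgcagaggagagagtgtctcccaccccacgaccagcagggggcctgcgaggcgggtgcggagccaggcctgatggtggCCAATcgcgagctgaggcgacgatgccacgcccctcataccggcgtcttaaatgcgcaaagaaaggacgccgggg
CCAAT was found in all 3 windows, in 2 copies in CYCS, 2 in CASP4 and 1 in ENDOG, and 32.0% of all 35116 windows of this length held it. GCATGCGC was found once, in CYCS, beginning 169 bases before the start, and 2.63% of all windows held it. GGGCGG was found once, in CASP4, and 42.6% of all windows held it. The windows also differed in composition: 64.4% of bases were G or C in CYCS and 62.8% in ENDOG, against 38.0% in CASP4 and a median of 58.0% over all windows. TATAAA had 0 matches in the 3 windows, and 10.7% of all windows held it. These 3 windows were picked by the size of the difference and do not stand for the members. Over the 54 windows of 30 member genes, CCAAT was held by 33.3%, GGGCGG by 61.1%, GCATGCGC by 9.26% and TATAAA by 9.26%. Whether these shares differ from those of all windows was not tested. A match is a description of these letters and does not show that a factor binds. The matches counted in any orientation did not overlap one another in the 3 windows.

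The IAP proteins, which block caspases or mark them for degradation, were level. XIAP, the direct inhibitor of CASP9 and effector caspases, read 313 on the knockdown array and 303 on the control array (0.04). BIRC2, which encodes the ubiquitin ligase cIAP1, read 687 on the knockdown array and 658 on the control array (0.06). All 4 that passed lay between 0.03 and 0.10. BIRC6, a giant ubiquitin ligase, did not pass, with 96.5 on the knockdown array and 88.4 on the control array.

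In the receptor route, CFLAR had the lowest value of any death-restraining member. CFLAR read 545 on the knockdown array and 623 on the control array (-0.19), and its second probe set past the filter read 355 and 439.6 (-0.30). Its 7 dim probe sets below the filter lay between -0.09 and 0.10, and the mean over all 9 was -0.05. CFLAR, BOK and CASP9 were the 3 of the 16 lower members whose difference went beyond the -0.16 reached by the background controls with up to 24 G or C bases. CFLAR was 1.2-fold lower after quantile normalization (-0.29) and after a loess correction (-0.26).

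The ligand and receptors gave no shared direction. TNFSF10, the TRAIL ligand, differed by -0.10 on the 1 of its 3 probe sets that passed, and its other 2 stood between 40.2 and 41.0 on both arrays. TNFRSF10A, a TRAIL receptor, had 1 probe set, which did not pass and read 104 on the knockdown array and 81.6 on the control array (0.30). TNFRSF1A, the TNF receptor, differed by 0.09 on the only probe set that passed. FADD, the adaptor shared by death receptors, read 378 on the knockdown array and 332 on the control array (0.18) and differed by 0.02 on the other that passed. TRADD, the adaptor of TNFRSF1A, differed by 0.06 on its brightest probe set and by -0.22 on the other, so it has no settled direction.

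Probe sets of a member did not always agree. Of the 21 members with 2 or more probe sets past the filter, 13 had all of them in the same direction, or 61.9%, beside 63.9% of all 5786 such genes. The 8 others were BAK1, BAD, CASP8, CASP9, HTRA2, TRADD, MCL1 and XIAP. The 10 remaining members past the filter, ENDOG and AIFM1 among them, rested on 1 probe set each.

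Differences followed intensity over all genes, and the members have to be read against that. In the brightest quartile of genes past the filter the median difference was 0.09 and 12.05% were past 1.2-fold upwards, whereas in the dimmest quartile the median was -0.04 and 1.18% had. CYCS and BIK lay in the brightest quartile. CASP4 lay in the one above the dimmest, where 3.37% of genes passed 1.2-fold upwards, and ENDOG in the dimmest. In the dimmest quartile 68.6% of all genes were lower, and it held BAK1, BMF, HRK, CASP10 and APAF1, all lower on their brightest probe sets. With the trend removed by loess, CYCS stood at 0.19 and MCL1 at -0.19, whereas BIK (0.31), CASP4 (0.37) and ENDOG (0.31) remained past 1.2-fold.

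**Figure D3:**
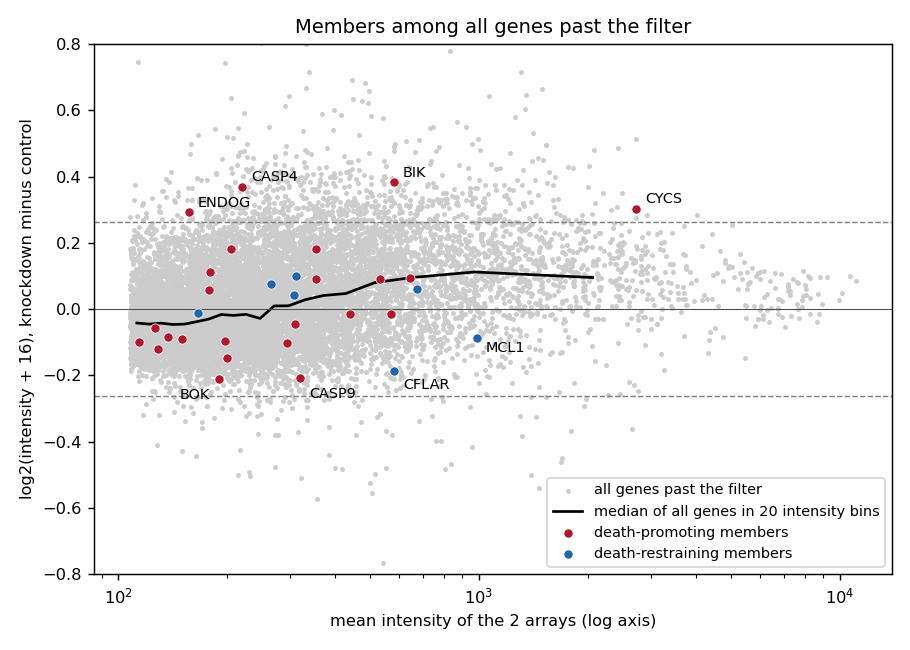
Difference (log2(intensity + 16), knockdown minus control) against mean intensity (log axis) for all 12220 genes past the filter in grey, with death-promoting members in red, death-restraining members in blue, the median of all genes in 20 intensity bins as a black line and dashed lines at 1.2-fold. The black line rises with intensity, CYCS lies nearer to it than BIK, and CFLAR and MCL1 lie below it. A total of 20 genes, none of them members, fall outside the plotted range of 0.8.

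A separate list of cell death genes outside the 36 was counted in the same way. Of 49 listed, 45 were represented and 35 passed the filter, 18 of them higher and 17 lower, with a median of 0.01. At 1.2-fold 4 were higher and 0 lower, 11.4% of the 35 beside the 5.95% and 0.884% of all genes given above. These 4 were the TRAIL receptor TNFRSF10B at 917 on the knockdown array and 715 on the control array (0.35), the co-chaperone BAG3 at 617 and 489 (0.33), the death receptor FAS at 163 and 127 (0.32), and the necroptosis effector MLKL at 133 and 107 (0.28). MLKL was below the filter value of 108 on the control array and passed through the knockdown array, where it was higher, so its place in this count is not support. Both FAS probe sets past the filter were higher, whereas TNFRSF10B, BAG3 and MLKL each had 1 past the filter.

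The direction of the named members was compared across 11 alternative settings. BIK remained past 1.2-fold in 11 of them, CASP4 in 10 of 11, ENDOG in 9 of the 10 that gave it a value and CYCS in 7 of 10. Settings that only change the filter leave each value as it was, so their part of these tallies was fixed beforehand. For ENDOG, with its only probe set, averaging and leaving out the _x_at and _s_at classes could not change the value either. CYCS fell short after quantile normalization (0.20), loess (0.19) and averaging of its probe sets (0.25). BOK lay between -0.23 and -0.11, CASP9 between -0.26 and -0.07 and HTRA2 between -0.16 and -0.01.

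**Figure D4:**
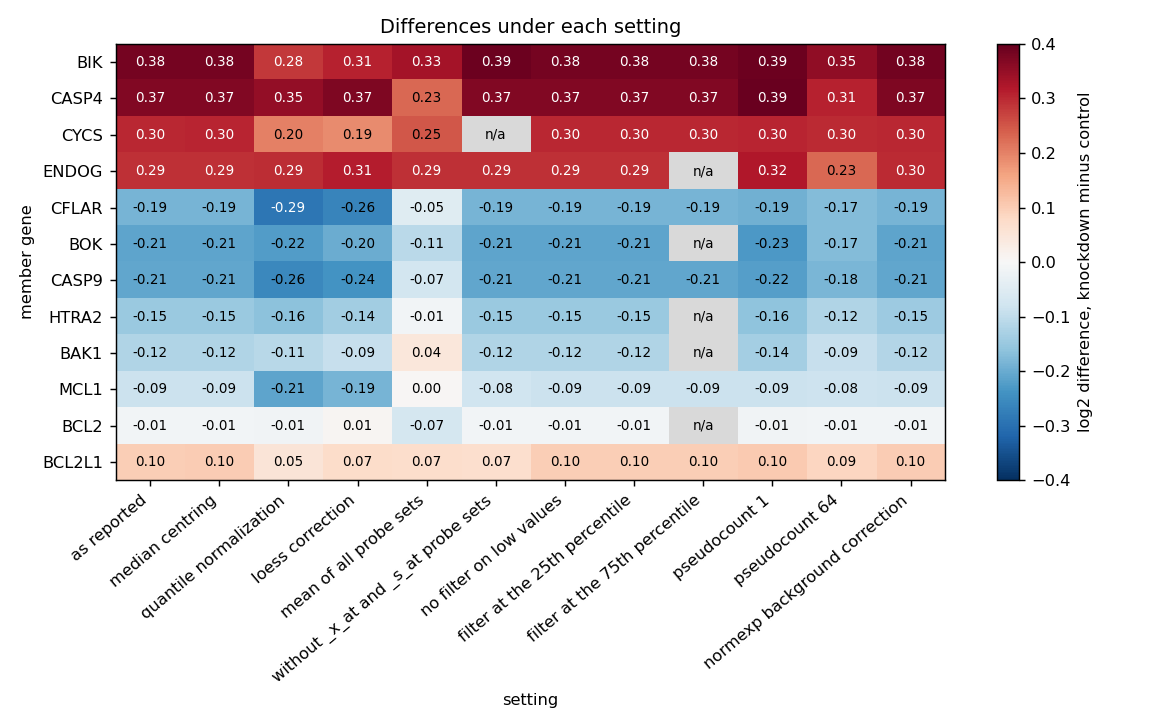
Log2 difference (knockdown minus control) of 12 members under the reported setting and 11 alternatives, coloured from -0.4 in blue to 0.4 in red, with n/a where the member has no value in that setting. BIK, CASP4, CYCS and ENDOG are red and CFLAR, BOK and CASP9 blue in every setting where they have a value, while BAK1 changes sign when all its probe sets are averaged.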

How the data were processed

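Gene expression was measured on 2 Affymetrix arrays, 1 of SUN2 knockdown and 1 of scrambled control HCT116 cells. The deposited values are probe set intensities on a linear scale, and MAS5 and RMA are the tools listed, without their roles, per the submitters' processing notes. The scaling between the arrays is unknown, with medians of 107 on the knockdown array and 109 on the control array. Of 49395 probe sets, 102 controls were set apart, and 44988 had 1 gene symbol, 1832 several and 2473 none in the platform annotation. Symbols were updated through the Entrez ID for 44961 of them. Probe sets with several symbols name no gene. The mean used by the filter was taken on the log2 scale.

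With 1 array per group no test exists, so genes were counted past fixed sizes of 1.2-fold and 1.5-fold. The members, lists and sizes were chosen with earlier results of these data known. Named genes were SUN2, all members (with full values for those past 1.2-fold, for the 4 largest differences per direction among death-promoting and the 3 among death-restraining members, and for probe sets 0.3 or more apart) and other cell death genes past 1.2-fold. Alternatives were median centring, quantile normalization, loess (span 0.4), the mean of all probe sets, leaving out the _x_at and _s_at classes, no filter, filters at percentiles 25 and 75, pseudocounts of 1 and 64, class medians without members that act in both directions (CFLAR, CASP8, TRADD, TNFRSF1A and BIRC2) and CASP4, and normexp (limma 3.58.1, offset 50 in place of the pseudocount). The gene step was tested on simulated data. Python 3.11.15, statsmodels 0.14.6 and R 4.3.3 were used.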

Additional observations from a re-analysis of the deposited data

Results flagged for a closer look

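A difference past 1.2-fold was present in data that the comparison of genes leaves out. A probe set that carries the symbols of CASP6 and another gene together read 251 on the knockdown array and 196 on the control array, a log2 difference of 0.33. Both values were below the background control with 20 G or C bases, at 264 on the knockdown array and 282 on the control array. A second probe set with the same 2 symbols read 348 on the knockdown array and 309.7 on the control array (0.16), and neither can be assigned to CASP6.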

How the results depend on the processing

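The count of members at least 1.2-fold higher was 4 as reported. It was 2 when all probe sets of a gene were averaged, beside 3.05% of all genes, where CASP4 (0.23) and CYCS (0.25) dropped out. It was 3 after quantile normalization, beside 3.08% of all genes, and 3 after loess, beside 3.86%. Without the _x_at and _s_at classes it was 3 of 27 members, beside 5.52% of genes, and CYCS had no value past the filter. With the filter at percentile 75 it was 3 of 19 members, beside 8.88%, and ENDOG did not pass that filter. With a pseudocount of 64 it was 3, beside 4.12%, and ENDOG fell short (0.23). With no filter and with the filter at percentile 25 it was 5, beside 4.12% and 4.73% of all genes, because TNFRSF10A (0.30) joined. The count of members at least 1.2-fold lower was 0 as reported and 1, CFLAR, after quantile normalization and after loess, beside 1.98% and 1.57% of all genes. The median of the death-promoting members turned to 0.0917 with the filter at percentile 75, which left 13 of them. Under that filter the median of all genes also moved, to 0.04 from -0.0009. Without members that act in both directions and CASP4, the median was -0.0363 for 20 death-promoting and 0.0416 for 5 death-restraining members. The count of other cell death genes past 1.2-fold was 4 as reported and 2 without the _x_at and _s_at classes, with the filter at percentile 75 and with a pseudocount of 64. Over all genes, 727 were 1.2-fold higher and 108 lower as reported, against 376 and 242 after quantile normalization, 472 and 192 after loess, and 373 and 47 when probe sets were averaged. Of the 31 members, 22 kept their sign in every alternative that gave them a value. A change of pseudocount or filter cannot reverse the sign of a given probe set, so those alternatives say little about stability. The 9 that changed sign were BAD, BAK1, BCL2, BID, BIRC2, CASP2, MCL1, TRADD and XIAP. SUN2 lay between -0.36 and -0.21. No paired analysis was possible because there was 1 array in each group, which also prevents leaving one out.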
